A study of Homo sapiens with 6 samples.

Results

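The transcripts described here are those of 10 genes of the endoplasmic reticulum (ER): the chaperones *HSPA5*, *HSP90B1* and *PDIA4*, the chaperone cofactors *DNAJB9*, *DNAJC3* and *SDF2L1*, the degradation factor *HERPUD1*, and the stress sensors and transcription factor *ERN1*, *ATF6* and *XBP1*. They were found by their gene symbols in a table of 60546 gene identifiers, in which each of the 10 symbols matched 1 row. The series holds 6 libraries of total RNA from HCT-116, an established human colon carcinoma cell line whose genotype is labelled wild type. In 3 libraries the cells carried PMSCV-GOLPH3, a virally delivered construct for the Golgi phosphoprotein GOLPH3, and in 3 they carried the empty PMSCV-Vector. All cells were grown in DMEM with serum and lysed directly for RNA. Both are stable lines made by viral infection. The promoter of the construct and the number of clones behind each line are not given in the sources used here.

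Each title carries a number after the letter P. The libraries labelled GOLPH3 are P8, P12 and P13 for replicates 1, 2 and 3, and the libraries labelled Vector are P12, P11 and P13. The labels do not say what P stands for, although the study's methods state that 3 generations of each line were sampled. P12 and P13 occur in both lines, and P8 and P11 are the lowest number of their own line. In what follows, the latter are called the P8/P11 pair, although their numbers differ. The p-values given here measure the spread between these libraries, which nothing in the labels ties to separate infections.

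Secretory and membrane proteins fold in the ER with the help of chaperones. When unfolded proteins accumulate there, membrane sensors start the unfolded protein response. The sensor encoded by *ERN1* (IRE1 alpha) is an endoribonuclease that starts the splicing of *XBP1* mRNA, the sensor encoded by *ATF6* is cut in the Golgi apparatus to release a transcription factor, and the kinase PERK, encoded by *EIF2AK3*, slows translation and raises ATF4. *HSPA5* (BiP), *HSP90B1* (GRP94), *DNAJB9*, *SDF2L1* and *HERPUD1* are textbook targets of this response. The values below are reads per gene, so they cannot show the splicing of *XBP1*, the cutting of ATF6 or the amount of any protein.

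Several of these genes carry well known ER stress elements before their start. They are shown here because they mark which members share an exact match to such an element in the bases searched. A member without a match is not shown to lack an element. The 250 bases upstream of each start were searched on both strands in the promoter sequences of RefSeq (GRCh38.p14), in which all 10 members had a window and *XBP1* and *PDIA4* had more than 1. The ER stress response element consists of CCAAT and CCACG with 9 bases between them, and 26 of 35116 promoter windows held it (0.0740%). *HSPA5*, *HSP90B1* and *XBP1* were among them, *HSP90B1* with 2 copies, one on each strand. The second kind of element consists of ATTGG and CCACG with 1 base between them. It was in 18 windows (0.0513%), those of *HERPUD1* and *SDF2L1* included. In the following sequences, written 5′ to 3′ along the gene, capitals mark both parts of an element. On the other strand the first kind reads CGTGG and ATTGG, as in the second copy of *HSP90B1*, and the second kind reads CGTGG and CCAAT, as in *SDF2L1*.
HSPA5, chr9:125241379-125241421, minus strand: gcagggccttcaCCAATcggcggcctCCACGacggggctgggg
HSP90B1, chr12:103930204-103930351, plus strand: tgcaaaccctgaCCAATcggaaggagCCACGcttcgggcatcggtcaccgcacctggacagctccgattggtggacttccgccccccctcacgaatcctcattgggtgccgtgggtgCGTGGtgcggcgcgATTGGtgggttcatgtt
XBP1, chr22:28800591-28800633, minus strand: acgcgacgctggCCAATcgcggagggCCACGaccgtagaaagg
HERPUD1, chr16:56932013-56932047, plus strand: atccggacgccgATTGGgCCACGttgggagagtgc
SDF2L1, chr22:21642102-21642136, plus strand: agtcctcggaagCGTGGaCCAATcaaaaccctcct

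CCACG alone, which is also part of both elements, was in 33.5% of all windows and in those of 8 members, with *ERN1* and *ATF6* as the exceptions. The core of the unfolded protein response element, TGACGTG, was in 1.68% of all windows and in no window of the members. These matches are descriptions of the letters in the windows. Members with the same element differed in the comparisons in which they passed the test, as the values below show.

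The recovered depth was between 15708846 and 21900764 reads per library, and all values are in normalized reads, that is, reads divided by the library's size factor. The *GOLPH3* transcript itself was not higher in the libraries labelled GOLPH3 (log2 difference -0.31, adjusted p = 0.609 by limma), so the label of the line is used throughout without a check from the transcript. Marker genes set the lines apart. The summed epithelial markers came to 86546 to 160981 normalized reads in the line labelled GOLPH3 and to 40039 to 47031 in the Vector line, while the summed mesenchymal and neuronal markers were between 1662 and 2110 and between 6461 and 15160. Of the 18 genes of the latter list, *CDH2*, *IRS4*, *NEFL*, *NEFM*, *UCHL1*, *ZEB2*, *COL1A2* and *TWIST2* were at 3 reads or fewer in every library labelled GOLPH3. *COL1A2* and *THY1* were at 3 reads or fewer in every Vector library, so *COL1A2* does not set the lines apart. By unadjusted p under 0.05 (limma, no block), 12 of 17 tested genes of this list were lower in the line labelled GOLPH3 and 2 were higher. Of all 26536 genes tested, 2670 were lower and 1993 higher. The colon markers *CDX1*, *KRT20* and *TFF3* were at 3 reads or fewer in all 6 libraries. The summed markers of immune cells were at most 79.0 normalized reads. The part of these differences in the results on ER genes was not tested, and in bulk RNA fewer cells of a kind and less RNA per cell cannot be told apart.

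To order the members by level, normalized reads were divided by the length of the gene's exons in kb. *HSPA5*, the Hsp70 of the ER, had the highest level, with 10585 ± 2703 normalized reads per kb (SD over the 6 libraries). *HSP90B1*, the Hsp90 of the ER, followed with 5189 ± 2015 and *PDIA4*, a protein disulfide isomerase, with 3154 ± 787. In each of the 6 libraries *HSPA5* was above *HSP90B1* and *HSP90B1* above *PDIA4*. The lowest *PDIA4* value (2074 per kb) was above the highest value of *SDF2L1* (1970 per kb), and this was the only step between neighbours at which the ranges did not overlap. From there the order was *SDF2L1* at 1138 ± 550 normalized reads per kb, *XBP1* at 887 ± 422, *HERPUD1* at 448 ± 52.5, *DNAJC3* at 406 ± 207, *ATF6* at 220 ± 84.3, *DNAJB9* at 118 ± 34.4 and *ERN1* at 87.7 ± 45.2. *SDF2L1* was above *XBP1* in only 3 of the 6 libraries. The level of the sensors was therefore low next to that of the chaperones, with the *ERN1* mean below all others. Together the 10 genes took between 0.384% and 0.626% of the normalized reads of a library, and *HSPA5* with *HSP90B1* made up 66.3% to 80.3% of that amount.

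**Figure D1:**
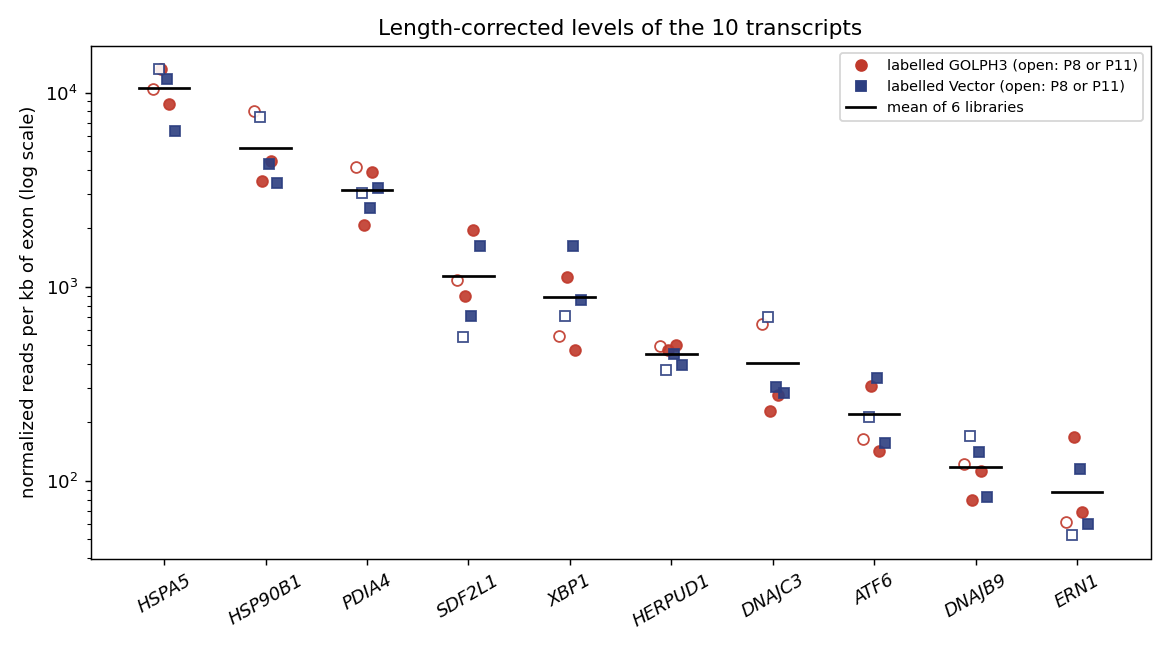
Normalized reads per kb of exon (log axis) of the 10 genes, with 1 point per library, circles for the libraries labelled GOLPH3, squares for those labelled Vector, open symbols for the P8/P11 pair and a black line at the mean of the 6 libraries. The 3 chaperones lie above the other 7 genes, from 10585 for the *HSPA5* mean down to 3154 for *PDIA4*, and *ERN1* has the lowest mean at 87.7.

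The first comparison was that of the design, between the line labelled GOLPH3 and the Vector line. Without a block, none of the 10 members passed the test. By limma on log2(normalized reads + 1) with Benjamini-Hochberg adjustment over 26536 genes, 0 of 10 members had an adjusted p under 0.05, against 5.07% of all genes tested, and 0 of 10 had an unadjusted p under 0.05. DESeq2 and edgeR on the recovered reads also called 0 of 10. The smallest adjusted p was that of *XBP1*, with a log2 difference of -0.57 (95% interval -1.43 to 0.29, adjusted p = 0.506). The intervals were wide, the widest spanning 1.91 on the log2 scale, so differences of the size seen in single members could not be resolved with 3 libraries in each line.

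The chaperones illustrate this. *HSPA5* had 40759, 51469 and 34047 normalized reads in replicates 1, 2 and 3 of the line labelled GOLPH3 and 45743, 51535 and 24649 in those of the Vector line. Its highest and its lowest values were both in the Vector line. The means were 42092 ± 8787 and 40642 ± 14150 (SD, n = 3 each), and the log2 difference was 0.10 (95% interval -0.69 to 0.89).

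*HERPUD1*, a membrane protein of ER-associated degradation, was the only member whose groups did not overlap, against 22.0% of all genes tested. Replicates 1, 2 and 3 of the line labelled GOLPH3 had 2549, 2441 and 2579 normalized reads, and those of the Vector line had 2318, 1930 and 2035. Its log2 difference of 0.27 (95% interval -0.29 to 0.83) had an adjusted p of 0.640 by limma, and the exact two-sided permutation test gave p = 0.1, the smallest that 3 against 3 libraries allow.

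With the order of the P number as a block, a setting chosen after the values were seen, each library labelled GOLPH3 is compared with the Vector library at the same place in its line. Then 2 of 10 members were called by limma, against 20.9% of all genes tested (9.43% higher and 11.5% lower), so the share of members was near that of all genes. *SDF2L1* was higher in the libraries labelled GOLPH3 in 3 of 3 such pairs (log2 difference 0.53, SE 0.17, adjusted p = 0.0470) and *XBP1* was lower in 3 of 3 (-0.57, SE 0.15, adjusted p = 0.0197). With the P number itself as the block, which leaves only P12 and P13 to set the difference, *XBP1* was called (-0.68, adjusted p = 0.00431) and *SDF2L1* was not. That fit called 6082 of 26536 genes on 1 residual degree of freedom, so the call of *XBP1* is not particular to the members.

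The larger differences lay between libraries of the same line, in the order of the P number. To describe them, limma was fitted with the line and the order of the P number as terms, which compares the P12 pair and the P13 pair with the P8/P11 pair and with each other. These 3 comparisons share libraries, each pair holds 1 library of each line, and they were added after the values had been seen. The fit takes P8 and P11 as 1 level. A gene's residual spread in it is only the disagreement of the lines across the order, on few residual degrees of freedom. In P12 against P8/P11, 5 of 10 members passed the test, against 9.48% of all genes tested. In P13 against P8/P11 it was 3 of 10 against 16.9%, and in P12 against P13 it was 4 of 10 against 3.40%.

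**Figure D2:**
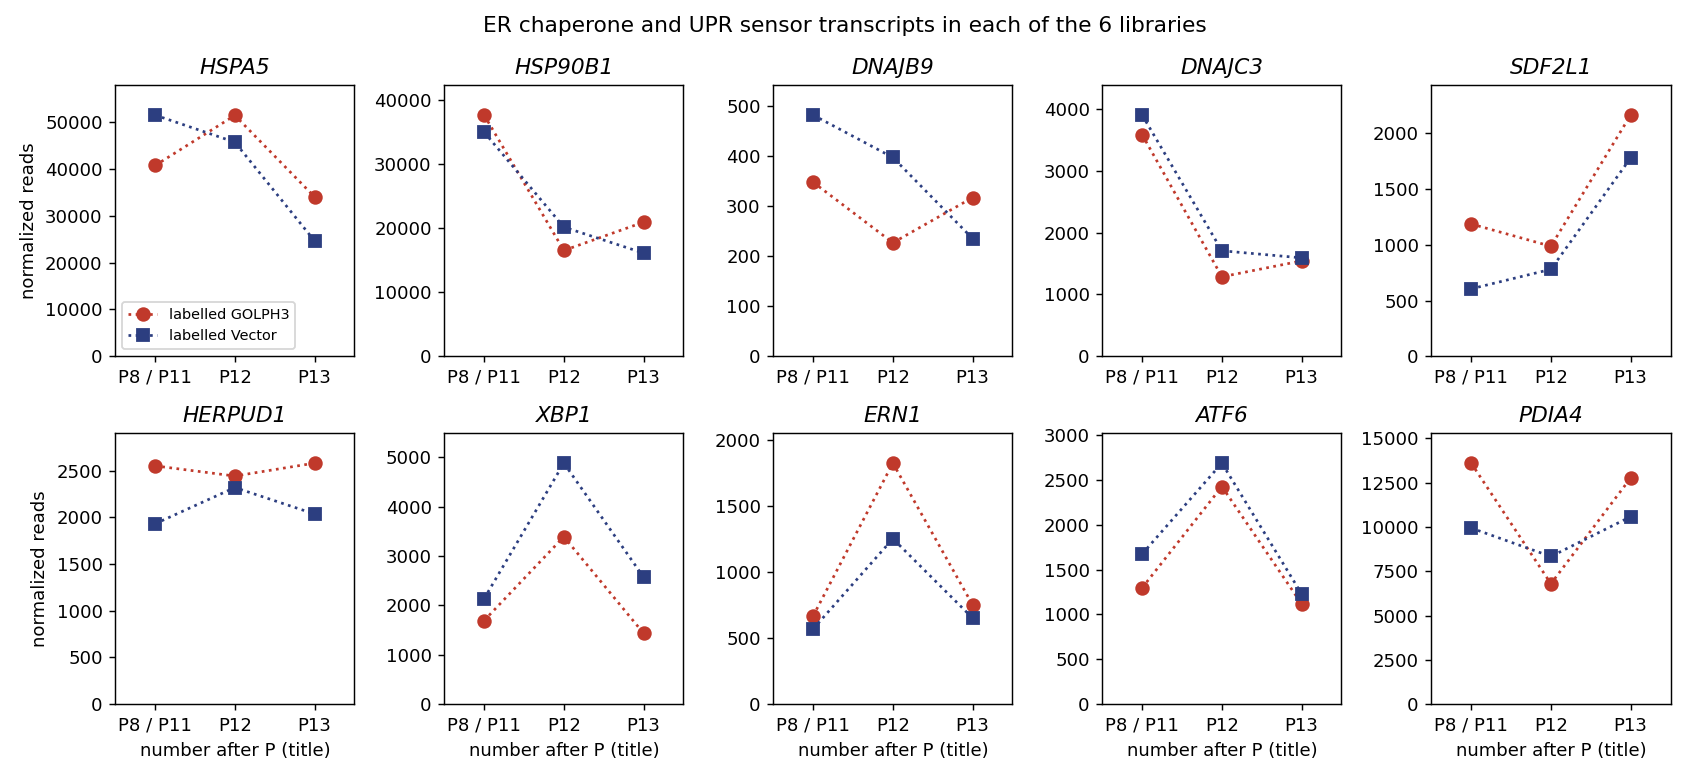
Normalized reads (y axis from 0) of each gene in the 6 libraries, placed by the number after P, with circles for the libraries labelled GOLPH3 and squares for those labelled Vector; the dotted lines only join libraries of a line. *XBP1*, *ERN1* and *ATF6* are highest at P12 in both lines, *HSP90B1* and *DNAJC3* are highest in the P8/P11 pair, and *SDF2L1* is highest at P13.

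The 2 sensors and the transcription factor *XBP1* were highest in both P12 libraries. *ERN1* had 1823 normalized reads in the P12 library labelled GOLPH3, against 668 at P8 and 752 at P13. In the Vector line it had 1252 at P12, against 570 at P11 and 651 at P13. Both P12 values were above the other 4, which spanned only 570 to 752. The log2 difference of P12 from P8/P11 was 1.29 (SE 0.19, adjusted p = 0.00204), a 2.45-fold higher level on the scale of normalized reads + 1, and that of P12 from P13 was 1.11 (SE 0.19, adjusted p = 0.0162).

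*XBP1*, which encodes the transcription factor whose mRNA IRE1 alpha cuts, had 3390 normalized reads at P12 in the line labelled GOLPH3, against 1694 at P8 and 1436 at P13. In the Vector line it had 4880 at P12, against 2137 at P11 and 2572 at P13. Within each line the P12 value was the highest, and the lowest value of the Vector line was above the P8 and P13 values of the other line. The log2 difference was 1.10 against P8/P11 (SE 0.19, adjusted p = 0.00424) and 1.08 against P13 (SE 0.19, adjusted p = 0.0159).

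*ATF6* had 2424 normalized reads at P12 in the line labelled GOLPH3, against 1297 at P8 and 1118 at P13, and 2685 at P12 in the Vector line, against 1674 at P11 and 1229 at P13. Again both P12 libraries were above the other 4. The log2 difference was 0.79 against P8/P11 (SE 0.18, adjusted p = 0.0174) and 1.12 against P13 (SE 0.18, adjusted p = 0.0115). Between P13 and P8/P11 none of *ERN1*, *XBP1* and *ATF6* was called, with log2 differences of 0.18, 0.01 and -0.33.

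The chaperones *HSP90B1* and *PDIA4* did not follow the sensors. *HSP90B1* was highest in the P8/P11 pair, with 37608 normalized reads at P8 in the line labelled GOLPH3, against 16494 at P12 and 20907 at P13, and with 34946 at P11 in the Vector line, against 20134 at P12 and 16086 at P13. The 2 values of the P8/P11 pair were above the other 4 without overlap. It fell by 0.99 on the log2 scale at P12 (SE 0.22, adjusted p = 0.0149) and by 0.98 at P13 (SE 0.22, adjusted p = 0.00996) relative to P8/P11, to 0.503 and 0.506 of its level, and P12 and P13 differed by -0.01 (95% interval -0.48 to 0.46).

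*HSPA5*, whose promoter holds the same element as those of *HSP90B1* and *XBP1*, had no called difference. Its lowest values were at P13 in both lines (34047 and 24649 normalized reads). In the line labelled GOLPH3 its highest value was at P12, and in the Vector line it was at P11. Its log2 difference was 0.08 for P12 against P8/P11 (95% interval -0.44 to 0.61), -0.66 for P13 against P8/P11 (SE 0.24, adjusted p = 0.0827) and 0.74 for P12 against P13 (SE 0.24, adjusted p = 0.116). With DESeq2, or without the filter on low values, the latter 2 passed the threshold. For P13 against P8/P11 these settings called 4628 and 4888 genes, against 4474 in the fit reported. For P12 against P13 they called 1643 and 1585, against 903. With each library left out in turn, *HSPA5* was at 0.47 to 1.02 for P12 against P13.

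*PDIA4* had its lowest value of each line at P12, with 6796 normalized reads in the line labelled GOLPH3, against 13601 at P8 and 12761 at P13, and 8335 in the Vector line, against 9940 at P11 and 10580 at P13. Its log2 difference for P12 against P8/P11 was -0.63 (SE 0.21, adjusted p = 0.0858), which did not pass the threshold. It passed in 2 of 7 other settings, with DESeq2 (adjusted p = 0.0388) and without the filter on low values. These settings called 2875 and 3126 genes, against 2516 in the fit reported. With each library left out in turn, the difference was between -0.96 and -0.30. The difference for P13 against P8/P11 was 0.00 (95% interval -0.46 to 0.46).

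**Figure D3:**
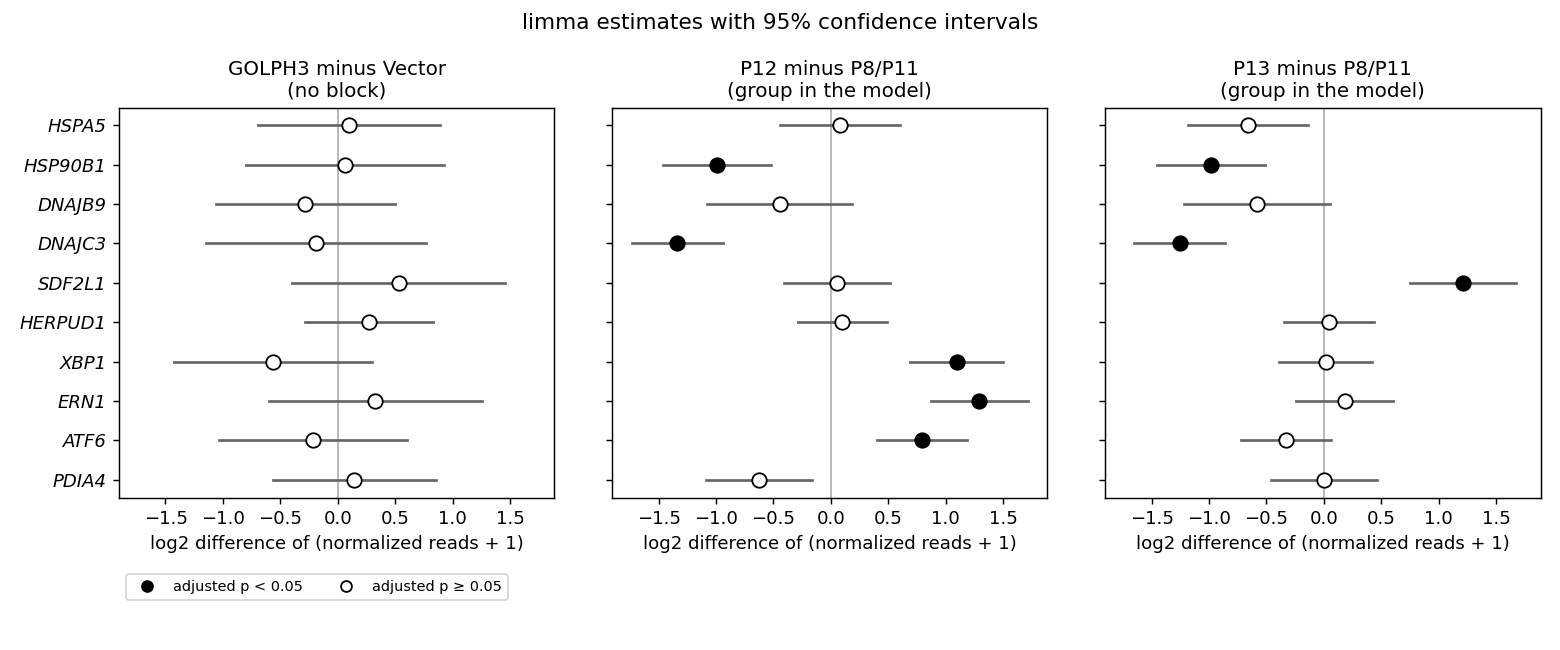
Log2 differences of (normalized reads + 1) by limma with 95% confidence intervals for the 10 genes in 3 comparisons, with filled points for an adjusted p under 0.05. No point is filled for GOLPH3 against Vector, 5 are for P12 against P8/P11 (3 above 0 and 2 below) and 3 are for P13 against P8/P11 (*SDF2L1* at 1.21 and *HSP90B1* and *DNAJC3* below 0).

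Among the cofactors, *DNAJC3*, a J-domain protein of the ER lumen that is also known as an inhibitor of eIF2 alpha kinases, had the most negative difference of the members. It had 3587 normalized reads at P8, against 1286 at P12 and 1544 at P13 in the line labelled GOLPH3, and 3906 at P11, against 1708 at P12 and 1593 at P13 in the Vector line. The P8/P11 pair stood above the other 4 libraries without overlap. It fell by 1.34 on the log2 scale at P12 (SE 0.18, adjusted p = 0.00115) and by 1.25 at P13 (SE 0.18, adjusted p = 0.00218), to 0.396 and 0.419 of its level in P8/P11.

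*SDF2L1*, an ER protein that works with *HSPA5* and its J-domain partners, had the opposite direction at P13. It had 2165 normalized reads at P13 in the line labelled GOLPH3, against 1187 at P8 and 987 at P12, and 1780 at P13 in the Vector line, against 605 at P11 and 780 at P12. Both P13 libraries were above the other 4. The log2 difference of P13 from P8/P11 was 1.21 (SE 0.21, adjusted p = 0.00387), that of P12 from P13 was -1.16 (SE 0.21, adjusted p = 0.0182), and that of P12 from P8/P11 was 0.05 (95% interval -0.41 to 0.51).

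*DNAJB9*, a J-domain cofactor that holds IRE1 alpha inactive, had between 227 and 482 normalized reads. It was highest at P11 in the Vector line (482) and at P8 in the line labelled GOLPH3 (348), and no difference was called, with -0.45 for P12 and -0.58 for P13 against P8/P11. Its gene overlaps *THAP5* and *PNPLA8* on the opposite strand, and since the strandedness of the libraries is not given in the sources used here, reads of these genes may not be separated from its own. *HERPUD1*, which shares its kind of promoter element with *SDF2L1*, varied least, with a highest-to-lowest ratio of 1.34 over the 6 libraries against 3.58 for *SDF2L1*. It differed by 0.10 for P12 and 0.05 for P13 against P8/P11, with the 95% intervals -0.29 to 0.49 and -0.34 to 0.44.

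The calls for P12 rest on single libraries of each line. With either P12 library left out (GOLPH3 replicate 2 or Vector replicate 1), P12 held 1 library. Fewer of all genes were then called, against P8/P11 as well as against P13. A loss of member calls in these fits could not be told apart from that of all genes, so only differences are given. The differences kept their direction, with *ERN1* at 1.13 to 1.45, *XBP1* at 0.92 to 1.27, *ATF6* at 0.68 to 0.90, *HSP90B1* at -1.26 to -0.73 and *DNAJC3* at -1.50 to -1.17 against P8/P11 over the 6 omissions. For P13 against P8/P11, the 6 omissions gave *DNAJC3* at -1.36 to -1.14, *SDF2L1* at 0.88 to 1.54 and *HSP90B1* at -1.22 to -0.75. Over the same omissions, *HSPA5* was at -0.99 to -0.33 and *DNAJB9* at -1.12 to -0.049. Here too an omission can leave 1 library in a pair, so calls are not given.

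The comparison of the P12 libraries with the other 4 together, with the line as a covariate, called 0 of 10 members, 0.00% of all genes tested. It was chosen with earlier results of these data known, in which another gene was high in both P12 libraries. By unadjusted p under 0.05, 3 of 10 members passed, against 7.24% of all genes: *ERN1* (log2 difference 1.20, adjusted p = 0.340 by limma), *XBP1* (1.09, adjusted p = 0.354) and *ATF6* (0.96, adjusted p = 0.466). Across all genes, 1920 had an unadjusted p under 0.05, DESeq2 called 200 and edgeR 0. Of the members DESeq2 called *ERN1* (adjusted p = 0.0393). The exact two-sided permutation test over the 15 arrangements of 2 against 4 libraries gave *ERN1*, *XBP1*, *ATF6* and *PDIA4* p = 0.0667 each, the smallest it allows. The share of all genes at this value is not given here, so nothing is read from the number of members that reached it.

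Some measures of the libraries moved with the P number too. The share of reads from ribosomal protein genes was 4.31% and 3.70% in the P8/P11 pair (GOLPH3 and Vector), 4.88% and 4.82% at P12 and 6.16% and 5.33% at P13. Genes with a short total exon length were shifted upward. For P13 against P8/P11, the median log2 difference of 1613 protein-coding genes with under 2 kb of exon was 0.59, that of 6501 genes with 2 to 5 kb was 0.31 and that of 7552 genes with 5 kb or more was -0.09. For P12 against P8/P11 these medians were 0.36, 0.15 and -0.08. Over all genes tested the medians were 0.06 and 0.04. *SDF2L1* has 1099 bases of exon and rose at P13, where 22.7% of the genes under 2 kb were called higher, while *DNAJC3* has 5591 and fell, where 17.3% of the genes of 5 kb or more were called lower. *ERN1* with 10864 bases and *ATF6* with 7890 rose at P12, the opposite sign to the median of their length class, in which 6.59% were called higher. The share of reads from mitochondrial genes was 9.97% and 9.88% in the P8/P11 pair, 4.41% and 7.08% at P12 and 9.75% and 4.71% at P13. The part of these measures in the results was not tested.

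Other genes linked to the ER stress pathways were followed by lists. The names of the lists are labels only. The activity of PERK, or of any other eIF2 alpha kinase, was not tested. In the PERK and ATF4 arm, 28 of 35 genes were called higher and 0 lower at P12 against P8/P11, where 6.08% of all genes were called higher and 3.40% lower. The median log2 difference of the list was 1.53, against 0.04 for all genes. At P13 against P8/P11, 19 of 35 were called higher and 2 lower (all genes: 10.0% and 6.84%), with a median of 0.78 against 0.06. At P12 against P13, 17 were called higher and 0 lower (all genes: 1.88% and 1.52%). These calls rest on 1 library of each line per pair, and fewer of all genes were called with a P12 library left out. The median at P12 against P13 was then 0.73 without GOLPH3 replicate 2 and 0.78 without Vector replicate 1. It was 0.73 without Vector replicate 3. Against P8/P11, with each library left out, the median was between 1.47 and 1.65 at P12 and between 0.71 and 0.83 at P13.

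*DDIT3*, which encodes the stress transcription factor CHOP, had 288 normalized reads at P8, 1499 at P12 and 1033 at P13 in the line labelled GOLPH3 and 194 at P11, 1119 at P12 and 367 at P13 in the Vector line. It was thus lowest in the P8/P11 pair and highest at P12 in both lines (log2 differences of 2.45 and 1.38 against P8/P11, adjusted p = 0.000280 and 0.00505 by limma). *TRIB3*, a pseudokinase induced by ATF4 and CHOP, differed by 3.04 at P12 and 1.55 at P13, and *CHAC1*, which degrades glutathione, by 4.06 and 3.35. The transcript of *ATF4* itself, which is regulated mainly in translation, differed by 0.66 at P12 (adjusted p = 0.0399) and 0.71 at P13 (adjusted p = 0.0194). *SLC7A11*, the cystine transporter, and *CEBPG*, a partner of ATF4, rose at P12 (1.39 and 1.49) and were not called at P13 (-0.50 and 0.21). The PERK gene *EIF2AK3* was not called at P12 (-0.61) and fell by 0.71 at P13 (adjusted p = 0.0457).

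Calls in the wider folding machinery went in both directions. Of all genes tested, 6.08% were called higher and 3.40% lower at P12 and 10.0% and 6.84% at P13. Of 46 ER folding genes, 6 were called higher and 3 lower at P12 and 8 higher and 9 lower at P13 against P8/P11, with median log2 differences of -0.13 and -0.06. *SIL1*, the nucleotide exchange factor of *HSPA5*, rose at both (1.19 and 1.27), and so did the peptidyl-prolyl isomerase *FKBP10* (0.79 and 1.39). *MANF*, a secreted ER stress protein, fell at P12 (-0.70) and was at 0.13 at P13, whereas the lectin chaperone *CANX* and the glucosyltransferases *UGGT1* and *UGGT2* fell at P13 (-0.70, -0.69 and -0.82). Of 35 genes of ER-associated degradation that were tested, 2 rose and 2 fell at P12 (5.71% each, near the share of all genes) and 6 rose and 6 fell at P13 (17.1% each). Among them *SEL1L*, the adaptor of the ubiquitin ligase HRD1, fell at P13 (-1.12) and the ubiquitin-conjugating enzyme *UBE2J2* rose at P12 and P13 (0.89 and 1.02). Of 49 genes of translocation and export, 3 rose and 8 fell at P12 and 3 rose and 12 fell at P13. *OST4* (1.22 and 2.14) and *SSR4* (0.94 and 1.37) rose, and the cargo receptors *TMED10* (-1.29 and -0.62) and *LMAN1* (-0.76 and -0.92) fell. The calls of these 3 lists rest on 1 library of each line per pair. Fewer of all genes were called in the fits that follow, so only medians are given, for folding, degradation, and translocation and export. At P12 they were 0.05, -0.07 and -0.10 without GOLPH3 replicate 2. Without Vector replicate 1 they were -0.23, -0.07 and -0.27. At P13 they were 0.04, -0.05 and -0.13 without Vector replicate 3.

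Of all genes tested, 6.08% were called higher and 3.40% lower at P12 and 10.0% and 6.84% at P13. Of 18 other ER stress sensors and processing factors, 1 rose and 1 fell at P12 (5.56% each, near the share of all genes). At P13, 4 rose and 2 fell (22.2% and 11.1%). They included *CREB3*, a membrane-bound transcription factor, with 0.92 and 0.81. With a library left out, the median of this list at P12 was 0.03 without GOLPH3 replicate 2 and -0.11 without Vector replicate 1. At P13 it was 0.13 without Vector replicate 3 and 0.01 without Vector replicate 2. Fewer of all genes were called in these fits, which leave 1 library in a pair, so calls are not given. Of 18 cytosolic heat shock genes tested, 9 were called lower and 1 higher at P12 (50.0% and 5.56%), with a median of -0.67. At P13, 6 were called lower and 2 higher (33.3% and 11.1%), with a median of -0.37. The small heat shock gene *HSPB1* was called higher at both (0.81 and 1.31). *HSPA8*, the constitutive cytosolic Hsp70, had 34853, 6889 and 38727 normalized reads at P8, P12 and P13 in the line labelled GOLPH3 and 53930, 5454 and 17592 at P11, P12 and P13 in the Vector line, so both P12 libraries were below the other 4 (log2 difference from P8/P11 -2.82, adjusted p = 0.000443 by limma). *DNAJA1*, a J-domain partner of *HSPA8*, fell by 1.81 on the log2 scale at P12. The median of the heat shock list at P12 was -0.64 without GOLPH3 replicate 2 and -0.71 without Vector replicate 1. At P13 it was 0.02 without Vector replicate 2 and -0.10 without Vector replicate 3.

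**Figure D4:**
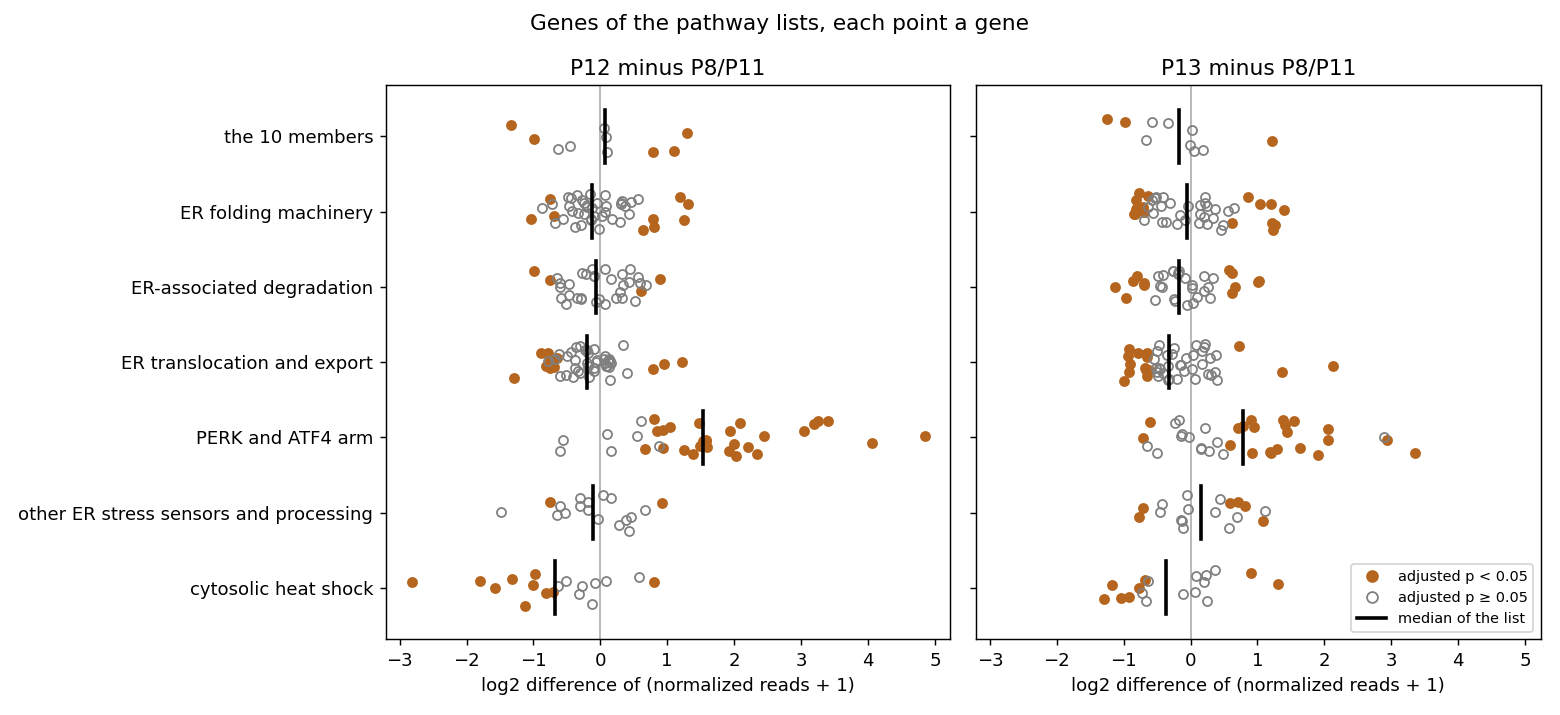
Log2 differences of (normalized reads + 1) for each gene of the lists (points, filled where the adjusted p is under 0.05) and the median of the list (black line), for P12 and P13 against P8/P11. The PERK and ATF4 arm lies to the right in both panels (medians 1.53 and 0.78), the cytosolic heat shock genes lie on both sides with medians below 0 (-0.67 and -0.37, the latter at 0.02 without Vector replicate 2), and the 10 members and the other ER lists lie on both sides of 0.

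Between the lines themselves, without a block, these lists gave few calls: against 0.953% of all genes called higher and 4.12% called lower, 0 of 35 genes of the PERK and ATF4 arm were higher and 1 was lower (*VLDLR*, -3.68), 1 of 46 folding genes was lower (*TMX4*, -1.20), 1 of 49 translocation and export genes was lower (*TUSC3*, -6.45), 1 of 18 other sensors was lower (*CREB3L1*, -3.00), and 0 of the 35 degradation and 0 of the 18 cytosolic heat shock genes were called. With the order of the P number as a block, where 9.43% of all genes were called higher and 11.5% lower, the counts were 12 higher and 2 lower of 35 for the PERK and ATF4 arm, 9 and 10 of 46 for folding, 7 and 5 of 35 for degradation, 1 and 11 of 49 for translocation and export, 0 and 4 of 18 for the other sensors and 4 and 5 of 18 for cytosolic heat shock. *TUSC3*, a subunit of the oligosaccharyltransferase, was at 4.12 to 6.44 normalized reads in the line labelled GOLPH3 and at 382 to 687 in the Vector line, so these groups were far apart. *TMX4*, a thioredoxin-related membrane protein, had 254 to 396 and 686 to 887.

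The genes whose pattern over the 6 libraries was most like that of *HSPA5*, by Pearson's r of log2 values among 11257 genes with a mean of at least 100 normalized reads, were *COMMD10* (r = 0.99), *LRAT*, *CAST*, *VPS37A* and *CAB39* (0.98 each). None of them is a member, and 143 genes had r above 0.9.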

How the data were processed

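RNA from 3 libraries labelled GOLPH3 and 3 labelled Vector was analysed. The deposited values are a signal per gene, which the authors made from aligned reads. The submitters' processing notes name fastp 0.20.0, HISAT2 2.1.0, featureCounts 1.6.1, Cufflinks and DESeq2 with the build GRCh38, without their order, and the annotation is not given in the sources used here. In every library 100% of the nonzero deposited signal values were whole multiples of 1 step (tolerance 0.1), worth 0.825 to 1.10 normalized reads, so whole reads could be recovered. Where an identifier had a second row (44 cases), both were summed. Values are not corrected for length, and exon lengths came from GENCODE 29.

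As such values do not suit a count test, limma (version 3.58.1, R 4.3.3, trended prior variance) was run on log2(value + 1) for genes with at least 1 in at least 3 libraries, with Benjamini-Hochberg adjustment and a threshold of 0.05. Fold changes are on that scale and understate those of low genes. DESeq2 1.42.0 and edgeR 4.0.16 were run on the recovered reads, and fits were tested on simulated data. The other alternatives were quantile normalization, other filters, a pseudocount of 0.1, blocks, and each library left out. The members, the lists and the comparison of P12 with the other libraries were chosen with earlier results of these data known. The models with the order of the P number were added after the values were seen. The members, *ATF4*, *DDIT3*, *TRIB3* and the 5 genes most like *HSPA5* are all named. Other pathway genes were picked from the 2 genes of each list with the smallest p in each comparison. Not all genes that meet this rule are named. *EIF2AK3*, *CANX*, *UGGT1*, *UGGT2* and *LMAN1* were named after their values were seen. Libraries of a group differed far beyond sampling noise (chi-square per degree of freedom at least 65.3). Each was counted as a sample, although this spread does not show that the libraries are independent.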

Additional observations from a re-analysis of the deposited data

How the results depend on the processing

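Deviations from the mean of the own line were correlated between the lines over 26536 genes. Libraries that share a replicate number had r -0.23, -0.15 and 0.26, so no pairing by replicate number was seen. The last of these pairs, P13, is also a pair by P order. Libraries at the same place in the P order had r 0.33, 0.26 and 0.26. Deviations within a line sum to 0, so r of both signs must occur. The P order was also chosen after the values were seen, so these r cannot test it as a pairing. With the replicate number as a block, 1081 genes were called between the lines and 0 members, and for P12 against the other libraries 3843 genes and 5 members were called. That block makes the latter the same comparison as P12 against P8/P11, which therefore also had 3843 genes and 5 members with it, on 1 residual degree of freedom. For P13 no paired value can be given, since replicate 3 is P13 in both lines. Between the lines 1346 genes were called in the analysis reported, 405 with a value of at least 1 in every library, 775 at an adjusted p under 0.01, 6082 with the P number and 5549 with its order as a block, and 459 to 1528 with a library left out. The members called were 1 with the P number and 2 with its order as a block. For P12 against the other libraries, DESeq2 called 200 genes and 1 member, and 0 to 23 genes were called with a library left out. For P12 against P8/P11 (2516 genes), quantile normalization gave 1663 (924 higher and 739 lower, against 1613 and 903), an adjusted p under 0.01 gave 833, and leaving out a library gave 261 to 3446 genes and 0 to 6 members. For P13 against P8/P11 (4474), an adjusted p under 0.01 gave 1830 and leaving out a library gave 2049 to 5275 genes and 2 to 5 members. Quantile normalization turned its split from 2658 higher and 1816 lower to 1813 and 1877. For P12 against P13 (903), the counts were 377 with quantile normalization, 1585 without a filter, 84 (1 member) with a pseudocount of 0.1, 1643 with DESeq2, 65 at an adjusted p under 0.01, and 14 to 2874 genes and 0 to 5 members with a library left out. The causes were not tested.

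No called member changed sign. Uncalled differences that did were, with quantile normalization, *HSPA5* (-0.17) and *HSP90B1* (-0.25) between the lines, *SDF2L1* at P12 against P8/P11 (-0.044) and *HSP90B1* at P12 against P13 (0.064), with edgeR the latter (0.012) and *XBP1* at P13 against P8/P11 (-0.0018), *PDIA4* between the lines with the P number as a block (-0.012), and *SDF2L1* at P12 against the other libraries with the replicate block (0.050). With a library left out, differences between the lines spanned -0.23 to 0.31 for *HSPA5*, -0.27 to 0.38 for *HSP90B1*, -0.64 to 0.22 for *DNAJC3*, -0.13 to 0.67 for *ERN1*, -0.55 to 0.084 for *ATF6* and -0.039 to 0.46 for *PDIA4*. For P12 against the other libraries they spanned -0.55 to 0.24 for *DNAJB9* and -0.071 to 0.23 for *HERPUD1*. For P12 against P8/P11 they spanned -0.25 to 0.41 for *HSPA5*, -0.28 to 0.38 for *SDF2L1* and -0.048 to 0.25 for *HERPUD1*. For P13 against P8/P11 they spanned -0.050 to 0.14 for *HERPUD1*, -0.19 to 0.22 for *XBP1* and -0.23 to 0.23 for *PDIA4*. For P12 against P13 they spanned -0.27 to 0.26 for *HSP90B1*, -0.40 to 0.67 for *DNAJB9*, -0.24 to 0.081 for *DNAJC3* and -0.094 to 0.20 for *HERPUD1*.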
